A study of Mus musculus with 16 samples.

Results

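Definitive endoderm made in culture was compared with the mouse embryonic stem cells (mESCs) it came from. Of the 16 Mouse Gene ST arrays of the series, which hold 8 groups of 2 biological replicates, 4 carry this comparison: 2 of sorted day 4 cells and 2 of undifferentiated mESCs. All cells carried the reporter alleles T GFP/+ and Foxa2 tagRFP/+ in 1 line (E14.1, strain 129/Ola, by the labels, although the study's methods name another line). The mESCs (day 0) grew on mitomycin C-treated fibroblasts in serum with LIF and were not sorted. The day 4 definitive endoderm (day 4 DE) was differentiated without serum on Wnt3a-secreting feeders, with activin A added at 12 ng/ml, and was sorted as Foxa2+/T-/CD24 high. For comparison stand the same gate at day 2 (day 2 DE), definitive endoderm progenitors at day 2 (DEPs, Foxa2+/T-/CD24 low, same medium) and mesoderm at day 4 (MES, Foxa2-/T+/CD24 negative), which had less activin A and added Bmp4. Differences from DEPs mix the CD24 gate with the day, and these cannot be told apart. The CD24 low endoderm cells of day 4, also in the series, were not tested against day 4 DE. Every gene with a probe set of its own was read, from its brightest probe set, which gave 18716 genes. Levels are log2 values, so a difference of 1 is a doubling of the array signal, and each difference is day 4 DE minus the other group.

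Definitive endoderm is the germ layer from which the gut tube, liver, pancreas and lung arise. It forms at gastrulation from epiblast cells under Nodal signalling, for which activin A stands in in culture, together with canonical Wnt signalling. Eomes and Mixl1 act early, and Foxa, Gata and Sox17 factors then set the endodermal programme, while the pluripotency network of Pou5f1, Sox2 and Nanog is shut down. Anterior endoderm is also a source of secreted inhibitors of Nodal, Bmp and Wnt signals that pattern the neighbouring embryo.

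The arrays of a group were close to each other, with a correlation over genes of 0.989 for the mESCs and 0.994 for day 4 DE, against 0.939 to 0.944 between an mESC and a day 4 DE array. Over all 8 groups the replicate correlation was 0.987 or above. Some genes still differed between the 2 day 2 DE arrays, with Cubn at 6.09 and 9.71 and Dab2 at 7.34 and 10.11. A difference was called where it exceeded 1 in size and its limma p adjusted over 32000 probe sets was below 0.05. The p-values rest on the spread between 2 replicates pooled over the 8 groups. The gate genes were high in day 4 DE, Foxa2 at 10.41 and 10.33 against 7.32 and 7.71 in mESCs, and Cd24a at 13.35 and 13.45 against 12.11 and 11.75. Both were used to sort and are no finding.

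The mESC arrays held fibroblast transcripts. The mean level of 24 fibroblast genes was 10.0 and 9.64 on the mESC arrays, 7.33 and 7.34 on the day 4 DE arrays, and 7.33 to 8.01 over all 14 sorted arrays. The summed level was 241 and 231 on the mESC arrays and 176 to 192 on the sorted arrays. Of the 24, 21 were higher on mESC replicate 1 than on replicate 2, with a median difference of 0.41 against 0.00 over all genes. Of these genes, Postn, Lox, Dcn and Thy1 stood at 10.18 or above on both mESC arrays and at 7.27 or below on both day 4 DE arrays. Col1a1, Col1a2 and Pdgfrb stood at 8.89 or above and at 8.39 or below, and Col3a1 did not differ (-0.01, 95% interval -0.25 to 0.23). Some sorted arrays also held such transcripts. Pdgfrb read 10.31 and 10.43 in MES, above both mESC arrays, and Col1a1 read 10.40 on day 2 DE replicate 2. The sorted DEPs were therefore read beside many of the falls from mESCs, and the part of feeder RNA in single falls was not tested. In these bulk samples, fewer cells of a type and less RNA per cell cannot be told apart.

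**Figure D1:**
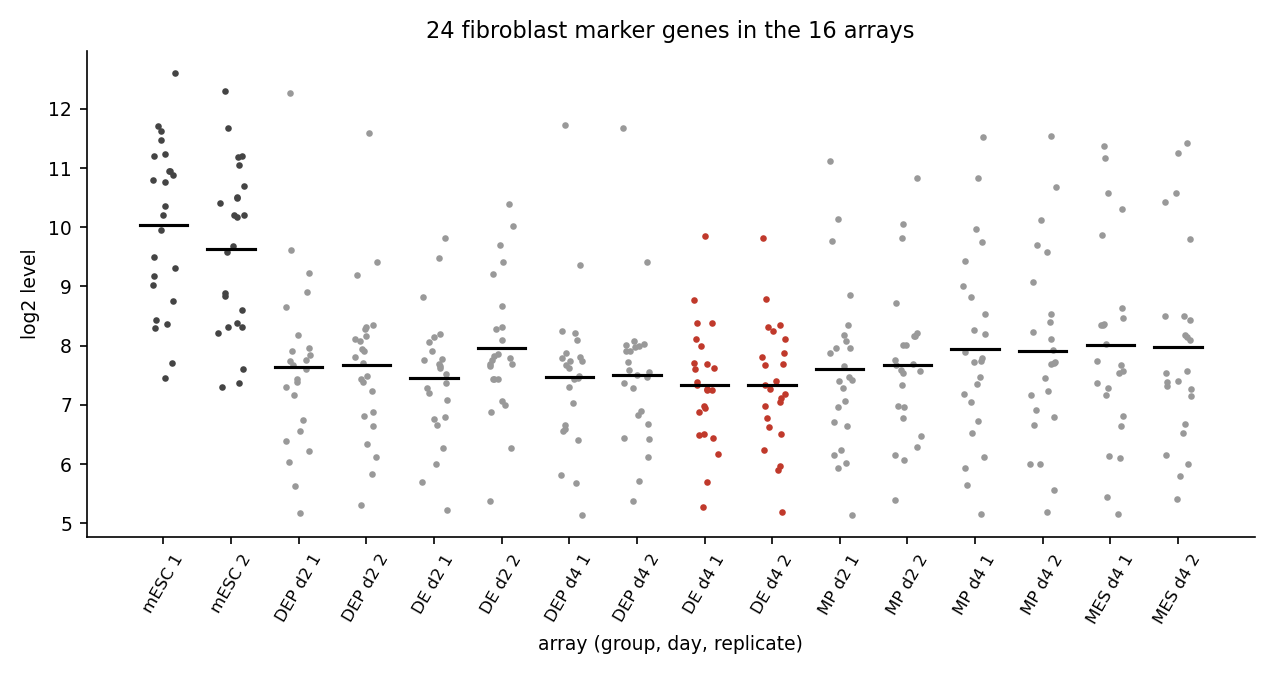
Log2 level of 24 fibroblast genes on each of the 16 arrays, with their mean as a bar. Points are dark grey for mESCs, red for day 4 DE and light grey for the other groups. The means of the mESC arrays, 10.0 and 9.64, lie above those of all sorted arrays, which run from 7.33 to 8.01.

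Of the 18716 genes, 929 (4.96%) were higher and 1207 (6.45%) lower in day 4 DE than in mESCs. At a difference above 2 in size, 261 were higher and 353 lower, and at a difference above 4, 46 and 39. The median of all genes was 0.07. Among the 1207 falls, DEPs stood more than 1 above day 4 DE for 408 genes and did not for the other 799, and for 362 genes the mESCs stood more than 1 above every sorted group. Among the 929 rises, day 2 DE was already more than 1 above the mESCs for 488 and DEPs for 129.

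**Figure D2:**
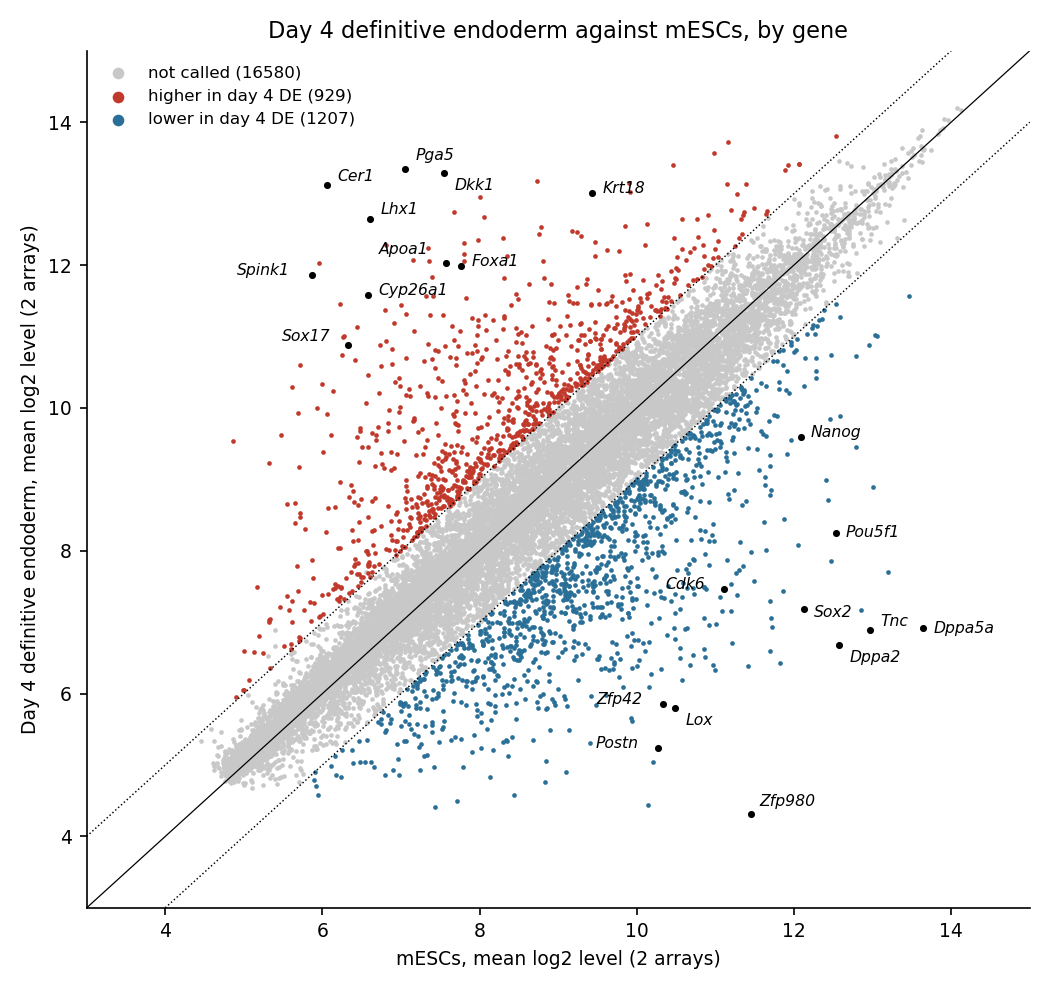
Mean log2 level of each gene in mESCs (x axis) and day 4 DE (y axis), n = 2 arrays each, with the 929 genes called higher and the 1207 called lower coloured. Cer1 and Lhx1 lie farthest above the diagonal among the genes of the endoderm lists, and Dppa5a, Tnc and Sox2 lie far below it.

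Nearly all transcription factors listed for the definitive endoderm stood higher in day 4 DE. Of 16 measured, 14 were higher than in mESCs and none lower, with a median of 3.43 against 0.07 for all genes. Sox7 (0.08) and Sp5 (0.81) were not called. Lhx1, a LIM homeodomain factor of the anterior endoderm and head organizer, read 6.47 and 6.74 on the mESC arrays and 12.60 and 12.70 on the day 4 DE arrays, a rise of 6.04 (SE 0.15, adjusted p = 6.3e-10). The 2 arrays of each group lay close together while the groups were 65.9-fold apart. Sox17, the Sox factor that defines endoderm, read 6.31 and 6.34 against 10.78 and 10.97, a rise of 4.55 (SE 0.19, adjusted p = 1.8e-08). Foxa1, a pioneer factor related to Foxa2 that played no part in the sort, read 7.88 and 7.66 against 11.92 and 12.06, a rise of 4.22 (SE 0.22, adjusted p = 9.7e-08). For both genes the mESC arrays were low and the day 4 DE arrays high, without overlap, as held for all 2136 called genes. The zinc finger factors Gata6 and Gata4 rose by 4.37 and 4.25, Hhex, needed for liver and thyroid buds, rose by 3.91, and Foxa3, a Foxa factor of later gut and liver, rose by 3.55. Eomes and Mixl1, the T-box and paired-like factors of the early streak, rose by 3.24 and 3.31. Otx2, Prdm1, Tcf7l2 and Gsc also rose, by 1.99, 1.65, 2.70 and 3.17.

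These factors did not share a time course or a lineage pattern. Against DEPs, where 3.64% of all genes were higher and 3.26% lower, 12 of the 16 were higher in day 4 DE and none lower, among them Sox17 (3.98) and Hhex (3.74). Eomes was 0.49 above DEPs, with a 95% interval of 0.17 to 0.80, and was not called. Against day 2 DE, where 1.23% of all genes were higher and 0.641% lower, only Foxa3 (1.68) and Hesx1 (2.60) of the 16 were higher at day 4, and Mixl1 was one of 2 that were lower (-1.53). Sox17 differed from day 2 DE by 0.13 (95% interval -0.29 to 0.55) and Lhx1 by 0.03 (-0.31 to 0.37). Against MES, where 4.26% of all genes were higher and 3.61% lower, 11 were higher in day 4 DE and 2 lower. Sox17 was 4.00 and Foxa1 4.75 above MES, while Gata4 (0.82) and Eomes (-0.01, 95% interval -0.33 to 0.31) were not called and Mixl1 was lower (-1.23). Lhx1 read 10.75 and 10.72 in MES, below day 4 DE but well above mESCs. The medium and the lineage of the MES arrays cannot be told apart.

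**Figure D3:**
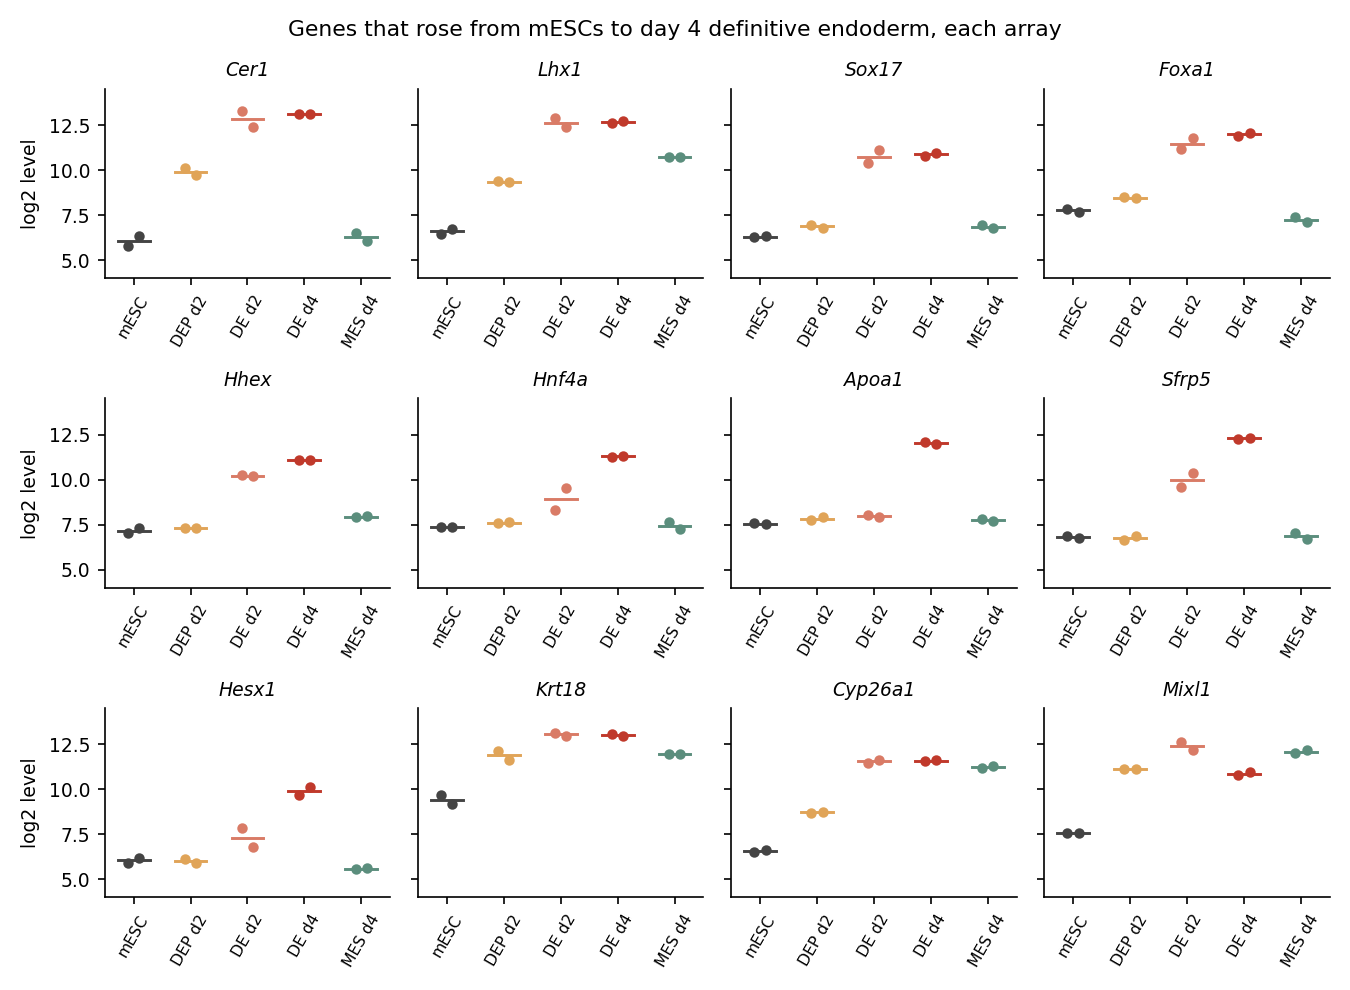
Log2 level of 12 genes on the 2 arrays of mESCs, DEPs (day 2), day 2 DE, day 4 DE and MES (day 4), 1 panel per gene. Sox17, Lhx1, Foxa1 and Cer1 are near their day 4 level in day 2 DE, and Apoa1, Hnf4a, Sfrp5 and Hesx1 climb between day 2 and day 4. Mixl1 and Cyp26a1 are also high in MES, and Lhx1 and Krt18 stand in MES between mESCs and day 4 DE.

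The largest rise of any gene was that of Cer1, which encodes a secreted inhibitor of Nodal, Bmp and Wnt ligands. It read 5.78 and 6.34 on the mESC arrays and 13.11 and 13.13 on the day 4 DE arrays, a rise of 7.05 (SE 0.28, adjusted p = 1.1e-08) or 133-fold. Because Foxa factors bind forkhead motifs, the RefSeq windows from 250 bases before to 50 bases after the start (GRCm38.p6) were searched on both strands for TGTTTAC or TGTTTGC. Shown are the windows of the 3 genes of largest rise with a match, on the strand of the gene, with the matches or their reverse complements in capitals. The window listed first for a gene was used, and genes of a chromosome barred from printing were passed over in this choice.
Cer1, chr4:82885102-82885401 (minus strand): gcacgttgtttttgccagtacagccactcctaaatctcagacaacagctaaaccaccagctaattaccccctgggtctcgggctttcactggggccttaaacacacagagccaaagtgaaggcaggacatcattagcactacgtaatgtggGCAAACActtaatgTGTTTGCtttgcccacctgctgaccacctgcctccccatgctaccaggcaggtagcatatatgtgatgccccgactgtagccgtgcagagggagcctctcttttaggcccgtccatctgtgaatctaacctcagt
Apoa1, chr9:46228380-46228679 (plus strand): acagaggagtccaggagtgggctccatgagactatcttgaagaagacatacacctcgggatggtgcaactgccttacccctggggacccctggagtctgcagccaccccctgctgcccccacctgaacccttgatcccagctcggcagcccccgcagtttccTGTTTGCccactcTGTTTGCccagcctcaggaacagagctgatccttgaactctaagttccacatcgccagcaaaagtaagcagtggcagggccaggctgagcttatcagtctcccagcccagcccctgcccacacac
Cxcr4, chr1:128592250-128592549 (minus strand): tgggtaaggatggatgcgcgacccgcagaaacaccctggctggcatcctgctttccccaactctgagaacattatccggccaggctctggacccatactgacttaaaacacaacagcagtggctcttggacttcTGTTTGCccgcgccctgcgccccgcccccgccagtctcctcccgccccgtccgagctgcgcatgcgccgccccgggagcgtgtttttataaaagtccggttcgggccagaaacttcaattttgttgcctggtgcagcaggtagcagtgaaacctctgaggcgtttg
The Cer1 and Apoa1 windows hold 2 matches each and the Cxcr4 window 1. The motif was no more frequent among risen genes, at 6.90% of 739 windows, than among all 14680 windows, at 6.79%, and 7.70% of the 909 windows of fallen genes held it. For the Gata letters AGATAA the shares were 6.36% of risen, 6.71% of fallen and 8.57% of all windows, and for the Sox letters ACAATG 8.53%, 7.59% and 9.37%. A match in these letters is not a binding site.

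Beside Cer1, 10 of the 20 secreted factors of anterior endoderm were higher than in mESCs and 1, Fst, was lower, with a median of 1.17. Dkk1, which blocks Wnt co-receptors, read 7.46 and 7.63 against 13.26 and 13.31 in day 4 DE, a rise of 5.74 (SE 0.17, adjusted p = 1.8e-09). Sfrp5, a decoy for Wnt ligands, read 6.86 and 6.77 against 12.25 and 12.32, a rise of 5.47 (SE 0.23, adjusted p = 1.6e-08). Both genes were low on the 2 mESC arrays and high on the 2 day 4 DE arrays. The related Wnt decoys Frzb and Sfrp1 rose by 3.64 and 2.58, and the ligands Bmp2, Fgf8, Fgf5 and Nodal by 4.88, 3.00, 2.18 and 1.18. Fst, an activin-binding protein, read 9.61 and 10.22 in mESCs against 7.38 and 7.46 in day 4 DE, a fall of -2.49, and it was also lower than in DEPs (-3.08). Lefty1, a Nodal inhibitor, was 0.99 above mESCs (95% interval 0.41 to 1.57) and not called, but 4.41 above MES. Of the 20, 13 were higher in day 4 DE than in MES and 1 lower. Cer1 was 6.82 and Dkk1 4.15 above MES, whereas Bmp2 (-0.02) and Fgf8 (0.22) were not called.

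Cxcr4, the chemokine receptor by which definitive endoderm is often sorted, read 7.27 and 6.72 in mESCs and 11.46 and 11.41 in day 4 DE, a rise of 4.44 (SE 0.16, adjusted p = 6.6e-09). In MES it was also well above mESCs, at 10.11 and 10.15. Cxcr4 was one of 12 of 15 endoderm surface and epithelial markers that were higher than in mESCs, with none lower and a median of 1.75. Against MES, 12 of the 15 were higher in day 4 DE and 1 lower. The receptor kinase gene Kit rose by 2.61, the semaphorin gene Sema6d by 4.44, the membrane protease gene Tmprss2 by 4.15, and Cldn6, a claudin of embryonic epithelia, by 1.75. Cdh1, which encodes E-cadherin, read a mean 0.65 above mESCs (95% interval 0.45 to 0.84) and Epcam 0.42 above (0.07 to 0.76), and neither reached the fold for a call. Against MES both were higher, by 2.63 and 2.21.

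Among the largest rises were genes known from digestive organs. Pga5, a pepsinogen gene, read 7.08 and 7.02 against 13.33 and 13.37, a rise of 6.29 (SE 0.19, adjusted p = 1.8e-09). Tph1, tryptophan hydroxylase, read 5.98 and 5.93 against 11.99 and 12.07, a rise of 6.08 (SE 0.24, adjusted p = 1.2e-08). Spink1, a trypsin inhibitor on the surface and epithelial list, read 5.86 on both mESC arrays and 11.86 and 11.85 in day 4 DE, a rise of 5.99 (SE 0.38, adjusted p = 3.5e-07). All 3 were low on the mESC arrays and in MES, with group means of 6.82, 6.13 and 5.18 in MES. Irs4, an adaptor of insulin receptor signalling, rose by 5.06, Foxq1, a forkhead factor, by 4.90, Myocd, a cofactor of smooth muscle transcription, by 4.74, and the membrane protein genes Pilra and Ajap1 by 5.22 and 4.92. Srgn, a proteoglycan core protein, rose by 4.95 with the widest error of the 15 largest rises (SE 0.96). Its arrays read 12.88 and 13.02 in day 4 DE, 7.98 and 12.33 in day 2 DE, and 12.23 and 11.89 in DEPs. Of the 15 largest rises, 13 were also higher than in MES, the exceptions being Cyp26a1 (0.36) and Bmp2 (-0.02).

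Epithelial genes rose in part. Of 17 keratin and desmosome genes, 7 were higher than in mESCs and none lower, with a median of 0.32. Krt18 and Krt8, the keratin pair of simple epithelia, moved together. Krt18 read 9.70 and 9.16 against 13.06 and 12.95, a rise of 3.58 (SE 0.20, adjusted p = 1.3e-07), and Krt8 read 10.71 and 10.20 against 13.36 and 13.43, a rise of 2.94 (SE 0.15, adjusted p = 7.9e-08). Dsc2 and Dsp, a desmosomal cadherin and the plaque protein desmoplakin, rose by 3.50 and 2.46. Of 23 tight junction genes, 7 were higher and 2 lower, with a median of 0.25. Mpp5 and Ocln, parts of the junction scaffold and strands, rose by 1.90 and 1.37, while Cldn1 and Cldn4 fell to differences of -2.39 and -1.10. Cldn1 stood at 6.04 in DEPs and 5.46 in MES, near its mean of 5.37 in day 4 DE, and Cldn4 differed from DEPs by -0.03.

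Of 19 epithelial regulators, 7 were higher and 2 lower (1 without mESC replicate 2), with a median of 0.57. Ehf, an Ets factor of epithelia, rose by 2.73, Elf3, a relative, by 1.69, Ovol2, a repressor of the mesenchymal programme, by 1.66, and Esrp1, a splicing regulator of epithelial isoforms, by 1.43. Grhl2, also an epithelial activator, differed from mESCs by -0.07 (95% interval -0.45 to 0.31) but stood 2.12 above MES. Of 28 polarity genes, 7 were higher and 1 lower (2 without mESC replicate 2 or without day 4 DE replicate 2). Amot, an angiomotin of cell junctions, read 9.31 and 8.15 against 13.20 and 13.15, a rise of 4.44 (SE 0.27, adjusted p = 2.5e-07). Vil1, which bundles actin in microvilli, rose by 2.73 and Myo5b, a motor of apical recycling, by 2.48. The single fall was that of Msn, moesin, at 11.62 and 11.17 in mESCs and 8.59 and 8.81 in day 4 DE (-2.70, SE 0.18, adjusted p = 4.3e-07). Its relative Rdx, radixin, rose by 1.10 and Ezr, ezrin, read 0.08, so the members of this family of actin linkers did not move alike. Msn was also lower than in DEPs (-1.94) and MES (-2.27).

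Genes of epithelial-to-mesenchymal transition mostly stood lower than in mESCs. Of 16, 9 were lower and 2 higher, with a median of -1.46. The repressor gene Snai2 read 10.20 and 9.65 against 6.67 and 6.68 (-3.25, SE 0.27, adjusted p = 2.7e-06), Zeb1 read 9.96 and 9.14 against 7.16 and 7.07 (-2.44, SE 0.24, adjusted p = 1.2e-05), and Zeb2 differed by -1.63. In DEPs the means of these 3 were 7.28, 7.40 and 7.36. Against DEPs, 2 of the 16 genes were called lower and 2 higher. The lower ones were Cdh11, a mesenchymal cadherin, at -1.90 and Vim, vimentin, at -1.20. Without day 4 DE replicate 1 neither was called, and without DEP replicate 2 Cdh11 was not. Snai1 differed from mESCs by -0.30 (95% interval -0.64 to 0.03) and from MES by -2.48 (adjusted p = 4.1e-07). Against MES, 11 of the 16 were lower in day 4 DE and 2 higher, with Zeb1 at -2.69, Zeb2 at -3.03 and Fn1, fibronectin, at -2.40. Cdh2, which encodes N-cadherin, was 1.01 higher than in mESCs (10.69 and 10.07 against 11.39 on both day 4 DE arrays), which fell to 0.70 without mESC replicate 2, and so was not called there. Against DEPs Cdh2 was 1.65 higher. The mesenchymal marker gene Acta2 read 12.61 and 12.30 in mESCs, 7.84 and 8.17 in DEPs and 9.86 and 9.82 in day 4 DE. It was thus below mESCs but above DEPs. Among matrix genes, 4 of 23 basement membrane genes were higher and 5 lower, with the laminin gene Lama5 at 1.30 and the nidogen gene Nid1 at -3.27, and of 16 integrin genes 4 were lower and none higher, with Itga6 at -2.01. Against DEPs, Nid1 was at -0.02 and Itga6 at -1.19.

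Several genes of serum proteins rose late. Of 22 visceral endoderm uptake and serum protein genes, 8 were higher than in mESCs and 3 lower, with a median of 0.44, and 5 were higher than in day 2 DE with none lower. Apoa1, the main protein of high-density lipoprotein, read 7.58 and 7.56 in mESCs and 12.10 and 11.97 in day 4 DE, a rise of 4.46 (SE 0.17, adjusted p = 7.7e-09). Its mean in day 2 DE was 7.99, and the rise from day 2 to day 4 was 4.04 (SE 0.17, adjusted p = 6.2e-07). Apoa1 was thus at the mESC level at day 2 and high only on the day 4 DE arrays among the groups compared. Hnf4a, a nuclear receptor of liver and gut, read 7.36 and 7.39 against 11.29 and 11.32, and 2.36 of its rise of 3.93 lay after day 2. Rbp4, which carries retinol in serum, and Apob, the scaffold of low-density lipoprotein, rose by 2.84 and 2.56, of which 1.86 and 1.96 came after day 2. Of the markers of visceral endoderm on this list, Apoa1 (4.46), Hnf4a (3.93) and Ttr (1.03) rose, while Afp (0.15), Amn (0.39) and Sox7 (0.08) were not called. The endocytic receptor gene Lrp2 was lower (-3.20), as it was against DEPs (-2.84).

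Regional genes of the gut tube were mostly not called. Of 20, 5 were higher than in mESCs, none was lower (1 without day 4 DE replicate 2) and the median was 0.24. The homeobox gene Irx3 rose by 2.44, Isl1, a factor of foregut and pancreas, by 2.20, Irx5 by 1.81, and Pax9, of the pharyngeal endoderm, by 1.44. Isl1 also stood 1.84 above day 2 DE. Pdx1 (0.84), Nkx2-1 (0.24), Cdx2 (0.18) and Shh (0.24) were not called.

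The pluripotency network stood lower. Of 18 naive pluripotency genes, 17 were lower than in mESCs and 1, Tbx3 (-0.69), was not called, with a median of -2.02. Of 15 general pluripotency genes, 10 were lower and Nodal, which is also an endoderm ligand, was higher, with a median of -2.10. Sox2 read 11.94 and 12.31 on the mESC arrays and 7.01 and 7.37 on the day 4 DE arrays, a difference of -4.93 (SE 0.15, adjusted p = 1.9e-09). Pou5f1 read 12.47 and 12.59 against 7.79 and 8.71 (-4.28, SE 0.25, adjusted p = 1.8e-07), with the day 4 DE arrays farther apart than the mESC arrays. Nanog read 12.01 and 12.16 against 9.39 and 9.78 (-2.50, SE 0.12, adjusted p = 5.1e-08). Day 4 DE was the low group for each of the 3 core factors. No array overlapped, which held for all 2136 called genes.

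The core factors were also lower than in a sorted group. Against the sorted DEPs, Pou5f1 was -4.50, Sox2 -3.89 and Nanog -2.91. Utf1, a chromatin factor of pluripotent cells, was -3.34 against mESCs and -3.0 against DEPs, L1td1, an RNA-binding protein, -3.24 and -3.09, and Tdgf1, the Nodal co-receptor Cripto, -2.05 and -2.17. Of the 18 naive genes, 3 were lower than in DEPs and 1 higher. Zfp42 (Rex1) read 9.95 and 10.72 in mESCs and 5.78 and 5.92 in day 4 DE (-4.48), and 6.22 as a mean in DEPs. Esrrb, a nuclear receptor, read 9.70 and 10.46 against 6.64 and 6.78 (-3.38), and 6.52 in DEPs. For both genes the mESC arrays were high and every sorted group shown was low. Tfcp2l1 was -1.01 below mESCs but 1.30 above DEPs and 1.43 above day 2 DE. From day 2 to day 4 of the DE gate, Pou5f1 still fell (-2.30, adjusted p = 3.1e-04), as did Nanog (-1.54), while Sox2 was not called (-0.73). Against MES, Pou5f1 was -2.98 and Sox2 -1.79.

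**Figure D4:**
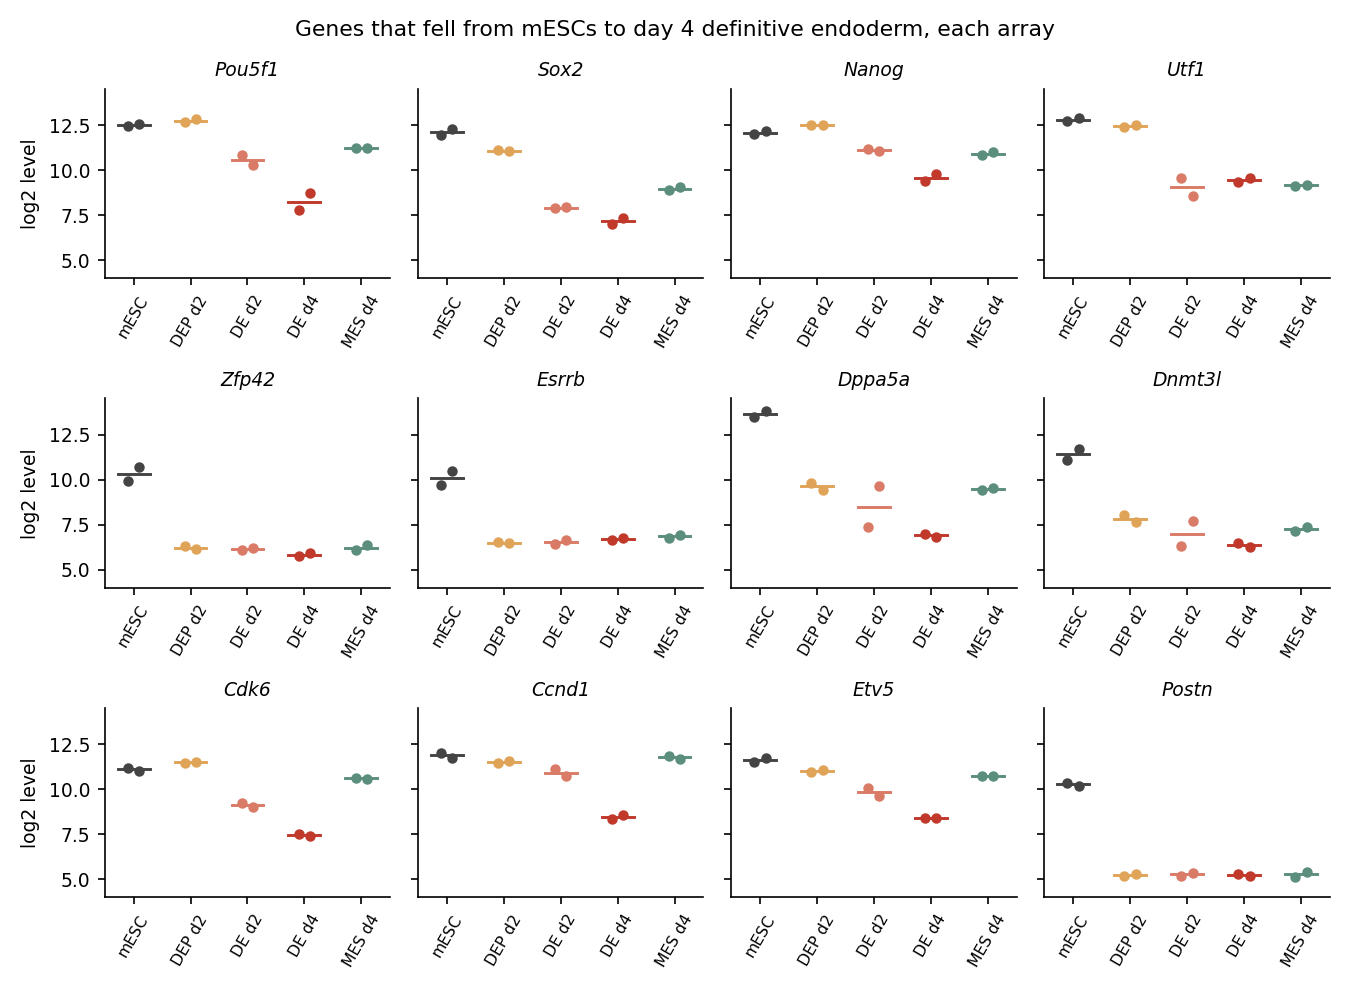
Log2 level of 12 genes on the 2 arrays of mESCs, DEPs (day 2), day 2 DE, day 4 DE and MES (day 4), 1 panel per gene. Pou5f1, Sox2, Nanog, Utf1, Cdk6 and Ccnd1 are high in both mESCs and DEPs and low in day 4 DE, whereas Zfp42, Esrrb and Postn are high on the mESC arrays only.

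Pou5f1 binds the octamer ATGCAAAT, often beside Sox2. In the same RefSeq windows, 2.31% of those of fallen genes, 1.76% of those of risen genes and 1.60% of all windows held the octamer on either strand. Chosen in the same way, the windows of the 3 genes of largest fall with a match are shown. They are on the strand of the gene, with the octamer or its reverse complement in capitals.
Tnc, chr4:64046966-64047265 (minus strand): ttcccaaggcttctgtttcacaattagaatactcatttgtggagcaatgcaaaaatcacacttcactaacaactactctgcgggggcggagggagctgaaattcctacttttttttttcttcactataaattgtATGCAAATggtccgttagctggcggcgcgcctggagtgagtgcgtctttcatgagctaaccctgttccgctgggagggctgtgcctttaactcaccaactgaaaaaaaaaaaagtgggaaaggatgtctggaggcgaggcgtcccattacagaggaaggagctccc
Zfp42, chr8:43306960-43307259 (minus strand): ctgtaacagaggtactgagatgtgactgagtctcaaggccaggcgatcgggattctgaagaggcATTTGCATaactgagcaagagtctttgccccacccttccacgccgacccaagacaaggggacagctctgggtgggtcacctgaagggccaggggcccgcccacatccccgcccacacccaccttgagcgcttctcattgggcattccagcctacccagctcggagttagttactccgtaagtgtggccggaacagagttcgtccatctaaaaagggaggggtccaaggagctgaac
Pipox, chr11:77893823-77894122 (minus strand): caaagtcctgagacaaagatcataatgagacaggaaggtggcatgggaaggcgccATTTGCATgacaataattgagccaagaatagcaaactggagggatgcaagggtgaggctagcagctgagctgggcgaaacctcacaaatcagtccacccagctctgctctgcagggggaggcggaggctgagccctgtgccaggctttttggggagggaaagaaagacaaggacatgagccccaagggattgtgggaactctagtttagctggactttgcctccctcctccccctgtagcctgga
Each window holds 1 match. The 3 genes are of different kinds, an extracellular matrix gene (Tnc), a pluripotency marker (Zfp42) and a gene of amino acid oxidation (Pipox, -3.01), and the letters show no use by Pou5f1.

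The 15 largest falls were of genes for which the mESCs stood more than 1 above every sorted group. Dppa5a, a small RNA-binding protein of pluripotent cells, read 13.46 and 13.83 against 7.0 and 6.82, a difference of -6.73 (SE 0.53, adjusted p = 1.9e-06), and was -2.73 against DEPs. Dppa2, a chromatin factor of early embryos, read 12.56 and 12.59 against 6.78 and 6.56 (-5.90, SE 0.33, adjusted p = 1.5e-07). Dnmt3l, the cofactor of de novo DNA methylation, read 11.12 and 11.70 against 6.50 and 6.27 (-5.02, SE 0.33, adjusted p = 5.2e-07). Beside these pluripotency genes stood genes of matrix and stroma. Tnc, tenascin, was -6.07, Bgn, biglycan, -5.67, Thbs1, thrombospondin, -5.49, Ptgs2, a prostaglandin synthase, -5.40 and Emp1, a membrane protein, -5.09. Against DEPs these 5 genes differed by 0.36, -0.19, -1.04, -0.43 and 0.21, of which the value for Thbs1 was called, but not without day 4 DE replicate 2 or without DEP replicate 1. Postn (-5.03) and Lox (-4.70) are on the fibroblast list, of whose 24 genes 19 were lower than in mESCs and none higher, with a median of -2.38. Against DEPs, 4 of the 24 were lower and 1 higher. Zfp980 (-7.14), Zfp640 (-5.70) and Zfp979 (-5.16) belong to a family of near-identical zinc finger genes whose probes can share transcripts, so that the values of single members are uncertain. Lncenc1 read 11.56 and 11.88 on the mESC arrays and 6.83 and 7.03 on the day 4 DE arrays.

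Formative genes split in direction. Of 17, 8 were lower than in mESCs and 3, Fgf5, Otx2 and Tead2, were higher, and for 7 of the 8 DEPs too stood more than 1 above day 4 DE. Etv5, an Ets factor downstream of Fgf signals, read 11.52 and 11.72 against 8.42 and 8.39 (-3.22, SE 0.13, adjusted p = 1.3e-08) and was -2.62 against DEPs. Sfrp2 was -2.89 and Lef1, the Wnt effector, -2.55. Among 10 genes of DNA methylation and its removal, 5 were lower and none higher (1 without mESC replicate 1). The de novo methyltransferase gene Dnmt3a was -2.06 and the Tet1 dioxygenase gene -2.08 (-1.34 and -0.95 against DEPs, the latter short of a call), while Dnmt3b (0.35) and Dnmt1 (-0.25) were not called. No gene of 5 measured for the 2-cell-like state was called.

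Genes of the signalling pathways moved in both directions. Of 46 Wnt pathway genes, 14 were higher than in mESCs and 6 lower, with a median of 0.18, and for 2 of the 6 DEPs too stood more than 1 above day 4 DE. Among the receptors, Fzd5 read 8.91 and 9.43 against 12.60 and 12.35 (3.30, SE 0.18, adjusted p = 1.1e-07) and Fzd8 read 8.37 and 7.76 against 11.42 and 11.19 (3.24, SE 0.23, adjusted p = 9.3e-07). Both receptors were low on the mESC arrays, high on the day 4 DE arrays, and stood 4.17 and 4.55 above MES. The ligand gene Wnt3 read 7.21 and 7.33 in mESCs and 8.16 and 8.47 in day 4 DE. It was higher in DEPs (9.16 and 9.36) and in MES (10.09 and 10.15) than in day 4 DE. Of the nuclear effectors, Tcf7l2 rose by 2.70 and Lef1 fell to -2.55, and Lef1 was -2.74 against DEPs and -3.74 against MES. The extracellular inhibitors split too, with Dkk1, Sfrp5, Frzb and Sfrp1 higher and Sfrp2 (-2.89), Dkk2 (-2.24) and Sfrp4 (-1.89) lower. Against DEPs, Sfrp2 was lower (-2.70), Dkk2 was at -0.01 and Sfrp4 at -0.94, so that of the 3 falls only that of Sfrp2 was called against them. The pathway targets Axin2 (0.10) and Sp5 (0.81) were not called, and Lgr5, an R-spondin receptor and target, rose by 2.88. Axin2 read 9.79 and 9.53 in day 2 DE, 8.29 and 8.33 in day 4 DE and 9.80 and 9.94 in MES. Sp5 read 10.02 and 9.77 in day 2 DE and 8.37 and 8.41 in day 4 DE. Lgr5 went the other way, from 8.95 and 8.97 to 9.48 and 9.63.

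In the Nodal and activin pathway, 8 of 23 genes were higher and 4 lower. The co-receptors went opposite ways, with Cfc1 (Cryptic) at 6.68 and 6.92 in mESCs and 11.37 on both day 4 DE arrays (4.58, SE 0.19, adjusted p = 1.9e-08) and Tdgf1 at 13.01 and 13.10 in mESCs and lower by -2.05 in day 4 DE (SE 0.14, adjusted p = 5.3e-07). The receptor and Smad genes Acvr2a (0.91), Smad2 (0.69) and Smad3 (0.21) were not called. Inhba, the activin A subunit, was -4.50 against mESCs, and its mean in DEPs was 6.81 against 6.71 in day 4 DE. In the Bmp pathway, 8 of 26 were higher and 3 lower. Bmp2 was higher and Bmp4 lower than in mESCs. Bmp2 read 5.56 and 5.88 against 10.51 and 10.70 (4.88, SE 0.18, adjusted p = 7.9e-09), and Bmp4 read 11.32 and 12.07 against 7.25 and 7.35 (-4.40, SE 0.32, adjusted p = 1e-06). Against DEPs, Bmp4 differed by -0.77 (95% interval -1.46 to -0.07) and was not called, and none of the 3 falls of the list had DEPs more than 1 above day 4 DE. Bmp4 was lower than in MES (-5.18), and Bmp2 differed from MES by -0.02. Smad1 and Id3, an effector and a target of Bmp signals, rose by 2.09 and 1.73.

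Of 23 Fgf pathway genes, 5 were higher and 5 lower. The ligand genes Fgf10, Fgf8 and Fgf5 rose by 3.77, 3.00 and 2.18, and Fgf4 and Fgf15 were -3.15 and -2.04 (-0.45 and -0.88 against DEPs, neither called). The feedback genes Spry2 and Spry4 were -1.95 and -1.26 (-1.58 and 0.24 against DEPs), and Dusp6 was not called (-0.77). Of 21 genes listed for the Notch pathway, 6 were higher and none lower. They include Hes1 (1.92), Hey1 (1.68), Dll1 (1.23) and Jag1 (1.13), and also Hesx1 (3.85), a homeobox gene that is not known as a Notch target.

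Of 19 retinoic acid genes, 6 were higher than in mESCs and 4 lower. Cyp26a1, which degrades retinoic acid, read 6.50 and 6.65 in mESCs and 11.56 and 11.60 in day 4 DE, a rise of 5.01 (SE 0.10, adjusted p = 2.9e-10). Its binding protein gene Crabp1 read 13.25 and 12.76 against 8.77 and 9.02 (-4.11, SE 0.18, adjusted p = 2.2e-08), and differed from DEPs by -0.50, which was not called. The receptor genes went both ways, Rarb and Rxra rising by 2.93 and 1.74 while Rarg and Rxrg were -2.52 and -2.20. Against DEPs, Rarg and Rxrg were lower as well (-1.68 and -2.76), and 2.12 of the rise of Rarb came after day 2. The synthesis gene Aldh1a2 was not called (-0.46).

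Among 34 cell cycle genes, 6 were lower and none higher (1 without mESC replicate 2), with a median of -0.24. Cdk6 read 11.19 and 11.02 in mESCs and 7.52 and 7.41 in day 4 DE (-3.64, SE 0.12, adjusted p = 3.6e-09), and Ccnd1, cyclin D1, read 12.00 and 11.75 against 8.33 and 8.55 (-3.44, SE 0.15, adjusted p = 2.1e-08). Both were lower than in each other group compared, at -4.03 and -3.06 against DEPs, -1.65 and -2.46 against day 2 DE and -3.16 and -3.33 against MES. Ccnd2, Ccne1, Myc and Mycn were -3.20, -1.77, -1.39 and -1.07, and -1.02, -1.03, -0.85 and -0.57 against DEPs. Genes of replication and mitosis were not called. The replicative helicase genes Mcm3 and Mcm2 and the topoisomerase gene Top2a were short of the fold at -0.90, -0.63 and -0.43, with adjusted p-values of 9.8e-05, 7.4e-04 and 0.0058, while Mki67 (-0.18), Mcm6 (-0.09), Cdk1 (-0.08), Ccna2 (-0.04) and Pcna (-0.03) lay nearer 0. Of 19 imprinted genes, 5 were higher and 4 lower. Phlda2, a growth-restraining gene of the placenta, read 12.31 and 12.55 against 8.69 and 8.74 (-3.72, SE 0.17, adjusted p = 3e-08) and was -5.20 against MES and -3.28 against DEPs, while Grb10 and Igf2 rose by 1.35 and 1.85.

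Cholesterol synthesis had the most calls among the metabolic lists. Of 20 genes, 14 were higher than in mESCs and none lower, with a median of 1.12 and a lowest value of 0.59. Stard4, a sterol carrier, read 8.55 and 8.79 against 11.13 and 11.15 (2.47, SE 0.13, adjusted p = 8.7e-08), Ebp, a sterol isomerase, read 8.72 on both mESC arrays against 10.63 and 10.61 (1.90, SE 0.14, adjusted p = 9.8e-07), and Hmgcs1, at the entry of the pathway, rose by 1.37. No gene of the 20 was called against day 2 DE or MES, and 2 were called higher against DEPs. The mESCs grew in serum and the sorted cells without it, so medium and differentiation cannot be told apart here. Of 20 glycolysis genes, 2 were higher and 4 lower, with Pfkp at -3.27, Pdk1 at -2.39 (-1.17 and -1.09 against DEPs) and the monocarboxylate carrier gene Slc16a1 at 1.71. Of 23 amino acid transporter genes, 3 were higher and 3 lower, with Slc7a8 and Slc38a5 rising by 4.51 and 4.28 and Slc1a3 at -2.32 (-2.27 against DEPs). Of 24 lysosome and endocytosis genes, the proteases Ctsh and Ctsc and the sterol exporter Npc1 rose by 3.51, 2.85 and 1.62 and none fell (1 without mESC replicate 2). Of 20 genes of the secretory pathway and its stress response, 2 were higher (1 without mESC replicate 1 and 4 without replicate 2), led by Creb3l1 at 2.45. The citric acid cycle had 1 call of 22 genes, Idh1 at 1.01, which was lost without day 4 DE replicate 2 and without mESC replicate 1.

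**Figure D5:**
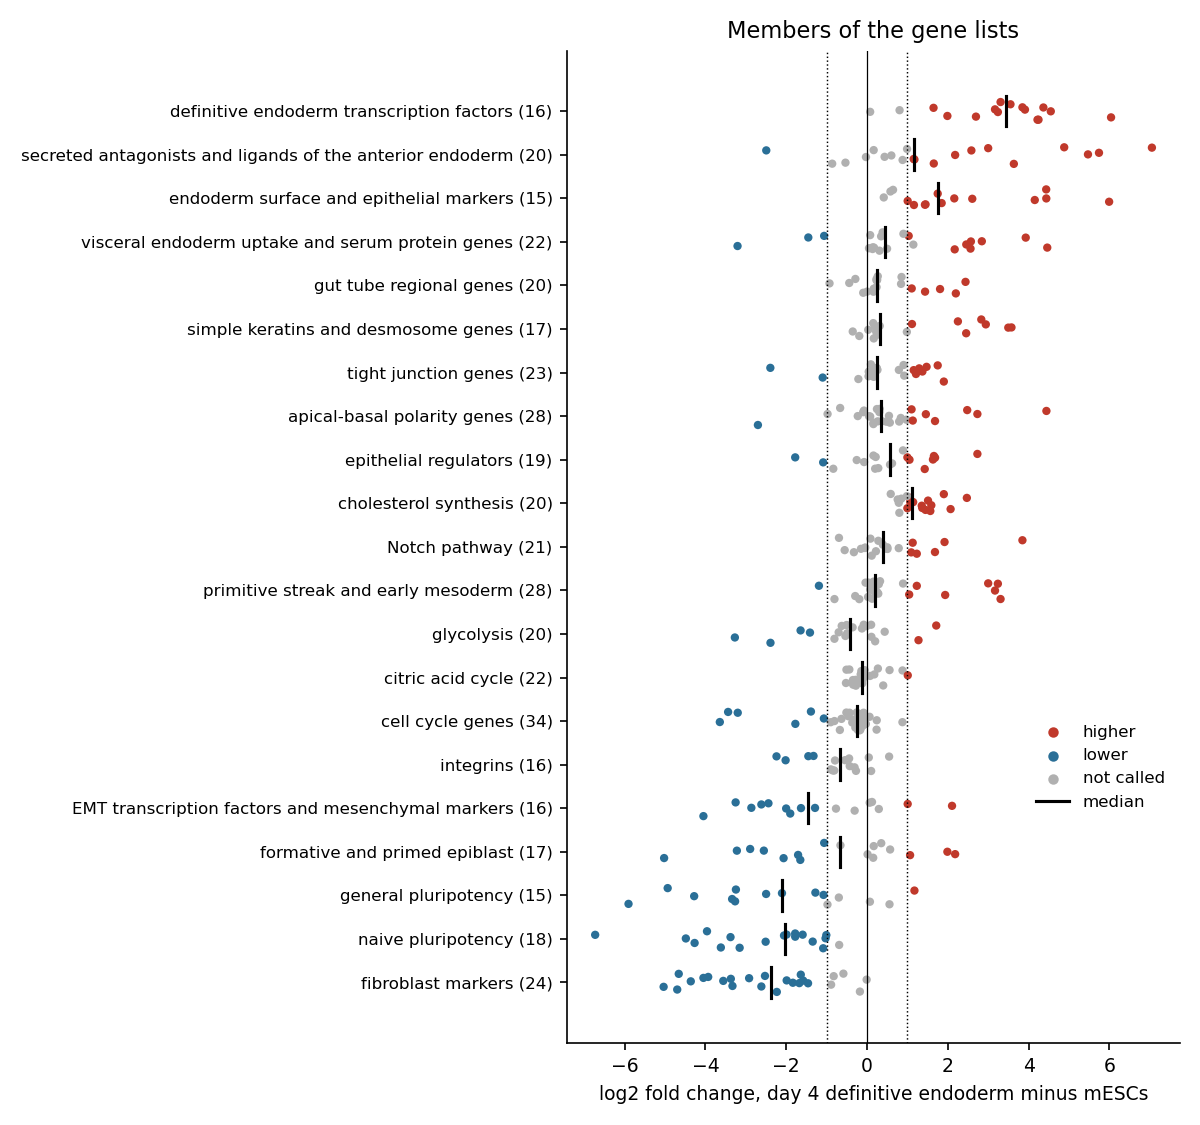
Log2 difference, day 4 DE minus mESCs, of each measured gene (points) of 21 gene lists, with the median of each list as a black bar and dotted lines at differences of 1 and -1. The definitive endoderm transcription factors have the highest median, 3.43, and the fibroblast markers the lowest, -2.38.

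Markers of other lineages were higher in part. In 6 of the 7 lists that follow the share called higher was above the 4.96% of all genes, and in the neural list it was 0. Of 28 streak and early mesoderm genes, 7 were higher than in mESCs, and these include Mixl1, Eomes, Gsc and Fgf8, which endoderm precursors share. Mesp1 (0.29), Tbx6 (0.16), Msgn1 (0.08), Hand1 (0.28) and Kdr (0.13) were not called, and 15 of the 28 were lower in day 4 DE than in MES. Tbx20, a T-box gene of the heart, rose by 1.94. Of 20 endothelial and blood genes, 3 were higher and 3 lower. The rises were of Flt1, a Vegf receptor, at 8.40 and 8.19 against 12.38 on both day 4 DE arrays (4.09, SE 0.14, adjusted p = 4.6e-09), of Runx1 (3.14) and of Gata1 (2.45). Cdh5 (0.04), Tal1 (0.08), Etv2 (-0.55) and Lmo2 (0.07) were among the members not called. The summed level of the 20 was 149 on both day 4 DE arrays and 146 and 144 on the mESC arrays. Of 13 trophoblast genes, Gata3, Ascl2, Krt7 and Plet1 rose, by 2.98, 2.95, 2.83 and 1.44, with Cdx2 (0.18) and Elf5 (0.28) not called and a summed level of 114 on both day 4 DE arrays against 103 on both mESC arrays. Among 15 node and notochord genes, 4 were higher and 1 lower, with Fgf10 at 3.77 and Noto at -0.00, and a summed level of 122 and 120 against 111 and 110. The loss of the single fall, Cobl (-1.23), without mESC replicate 2 left none lower. No neural gene of 18 was higher and 5 were lower. Of 14 parietal endoderm genes, 4 were higher and 6 lower, with Thbd at -1.92 (0.09 against DEPs). The largest rise of this list was that of Gata4 (4.25), which is also on the definitive endoderm list. Of 11 germ cell genes, 2 were higher and 6 lower, with Ddx4 and Sycp3 at -3.23 and -3.22 (-0.02 and -0.11 against DEPs). The 2 rises were of Kit and Prdm1, which are also on the endoderm lists above. The part of other cell types in these calls was not tested.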

How the data were processed

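RNA of the 16 samples was hybridised to Mouse Gene ST arrays. The authors made the deposited log2 values by RMA with oligo 1.48.0 over all arrays, which sets every array to one distribution, so a change in total RNA cannot be seen and differences between low levels are compressed. Depth does not apply to arrays, and their number limits the precision.

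The 32000 of 35556 probe sets of highest mean were kept, as in the study's methods. A limma 3.58.1 model (R 4.3.3) with a mean for each of 8 groups gave differences, SE and p-values, adjusted by Benjamini-Hochberg over the 32000. Of these probe sets 20427 name 1 gene, 1400 several and 10173 none, and the brightest of a gene was read. The fit was tested on simulated data.

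The members and the 40 gene lists (688 genes measured, 49 not) were chosen with earlier results of these data known. Named are the 15 largest rises and falls, the sort genes, most of the genes the study names and, in most lists, at most 5 called genes per direction. Uncalled ones are given by their value. In some lists further called genes are named. Scaling, filters, call rules, probe set choice, the block and single arrays were varied. Promoter sequences are from RefSeq, matched by symbol for 14680 genes. The gene T is not reported here.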

Additional observations from a re-analysis of the deposited data

Results flagged for a closer look

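For 7 of the 15 genes of largest rise, the change from mESCs differed between the DE gate at day 4 and at day 2, as tested by the contrast of the 2 groups in the limma model. The excess of day 4 over day 2 was 2.69 for Spink1, 2.29 for Sfrp5, 1.90 for Tph1, 1.61 for Myocd, 1.28 for Ajap1, 1.25 for Bmp2 and 1.03 for Pga5. The value for Pga5 lies at the threshold, and its call was lost without day 4 DE replicate 2 (1.01) and without day 2 DE replicate 2 (0.97).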

How the results depend on the processing

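With 16000 probe sets, and so fewer genes tested, the 929 genes higher became 728 and the 1207 lower became 789, the latter a drop of more than 1.5 times, and 13 of 80 list counts moved as far, among them the falls of the naive pluripotency list (17 to 8) and of the fibroblast list (19 to 11). Both counts were within 1.5 times under the 4 arrays alone (926 and 1176), all probe sets (929 and 1214), centring on ribosomal protein genes (859 and 1266) or on the median (994 and 1130), trend and robust estimation (929 and 1207) and the median over probe sets (932 and 1193). A stricter fold threshold gave 261 and 353, no fold threshold 3479 and 3711, and the treat test 403 and 574. Leaving out 1 array gave 892 to 990 higher and 1174 to 1251 lower. The replicate block gave 929 and 1207. The 2 pairs of same-numbered arrays deviated with a correlation of 0.10 only, so the numbers were not taken as a pairing. With the sorted DEP arrays in place of the mESC arrays, an alternative added after the fibroblast levels were seen, 682 genes were higher and 611 lower.

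Of 234 named genes, 227 were called against mESCs, and 19 of these lost the call in some setting, none with a change of sign. Of the list counts, 927 stayed within 1.5 times over the settings and 33 did not. With 2 arrays per group, small differences cannot be told from the spread, and levels near the lower end of the array scale give compressed differences.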
